A study of Homo sapiens with 6 samples.

Results

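The smooth muscle type contractile genes are described in DCIS.COM cells with knockdown of BCL9, a co-activator of β-catenin. The members were the rows of the deposited table named ACTA2, ACTG2, TAGLN, CNN1, MYLK, MYL9, TPM1, TPM2, CALD1 and OXTR, which are 10 of the 58676 genes listed. DCIS.COM is an established human breast cell line of the basal type that forms DCIS, cancer cells held within the milk duct. All cells had received a PLKO.1 lentiviral vector, carrying a non-silencing sequence in the 3 NS control samples and an shRNA against BCL9 in the 3 BCL9 KD samples. A single BCL9 shRNA was used, and each sample was RNA from its own flask.

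Myoepithelial cells form the outer layer of the mammary duct. They contract with actin filaments of the smooth muscle type, and they stand between the duct and the surrounding tissue. Contraction begins when oxytocin binds its receptor on the cell surface. Calcium then activates myosin light chain kinase, which phosphorylates the regulatory light chain of myosin so that myosin pulls on actin. Tropomyosin, caldesmon, calponin and transgelin bind the actin filament. Transcription of many of these genes is driven by the serum response factor SRF together with the cofactors myocardin and MRTF, through a DNA element called the CArG box.

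Of these genes, 5 (MYL9, TPM1, MYLK, ACTG2 and TAGLN) were lower in BCL9 KD than in NS control cells, with mean expression in BCL9 KD cells between 32.5% and 71.5% of that in NS control cells. Over all tested genes, 2.91% were called lower and 5.87% called in either direction. ACTG2 and TAGLN reached the tested range through the NS control samples alone, and without the filter on low values they did not pass (limma adjusted p = 0.101 and 0.117). TPM2, CALD1 and ACTA2 did not pass the test, OXTR was too low to be tested, and CNN1 had no reads. Expression was measured as FPKM, the reads counted on a gene per kilobase of its length and per 1e6 reads counted. The reads counted on genes ranged from 15222452 to 22712638 in NS control and from 15665714 to 26949026 in BCL9 KD samples. BCL9 itself had 5.94 ± 0.522 FPKM in NS control against 2.74 ± 0.139 FPKM in BCL9 KD cells (SD, n = 3 each, limma adjusted p = 0.00773). In RNA from a whole culture, fewer cells of a type and less RNA per cell cannot be told apart. All p-values measure the spread between these flasks.

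The label was checked against marker genes. The basal markers KRT5 and KRT17 were at 398 ± 25.9 and 570 ± 68.6 FPKM in NS control cells (SD, n = 3). Means of the other basal and myoepithelial markers ran from 0.262 FPKM for MME to 472 FPKM for ITGB4 in these cells. The luminal markers KRT8, KRT18 and EPCAM were at 293 ± 36.4, 177 ± 24.4 and 102 ± 4.68 FPKM (SD, n = 3), and GATA3 at 8.09 ± 1.03 FPKM (SD, n = 3). The luminal markers KRT19, MUC1, ESR1 and PGR had means of at most 0.796 FPKM. Markers of both types were thus present. In the same cells ACTA2, the smooth muscle actin used to stain the myoepithelial layer, was at 0.750 ± 0.130 FPKM (SD, n = 3) and MYH11, the smooth muscle myosin heavy chain, at 0.149 ± 0.0280 FPKM (SD, n = 3). MYOCD, which encodes myocardin, and DES, which encodes the muscle filament protein desmin, had no reads in any of the 6 samples. SMTN, which encodes the smooth muscle protein smoothelin, was at 10.3 ± 1.19 FPKM in NS control cells (SD, n = 3). ACTA2, MYH11, MYOCD and DES were thus absent or low while SMTN was not, and no myoepithelial or smooth muscle sample was analysed here for comparison. The level of ACTA2 is uncertain, since it shares 21.4% of its 50-base windows with another gene and overlaps FAS and STAMBPL1. The genes are described by what they encode and not as those of a myoepithelial cell. Genes that mark fibroblasts or smooth muscle cells, a list of 10, summed to between 0.839 and 0.907 FPKM in NS control and to at most 1.06 FPKM in BCL9 KD samples, with COL3A1, DES and MYOCD at 0. Every BCL9 KD sum was above every NS control sum. Most of the sum was COL1A1, whose groups overlapped (0.517 ± 0.0294 against 0.594 ± 0.0803 FPKM, SD, n = 3, limma adjusted p = 0.693), and the sum itself was not tested. Of the 4 genes that mark blood and endothelial cells, PECAM1 was higher in BCL9 KD cells (2.10 ± 0.328 against 3.45 ± 0.412 FPKM, SD, n = 3, limma adjusted p = 0.0477), while PTPRC, CD68 and CDH5 were all below 0.1 FPKM on average.

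By level in NS control cells, the members ran from TPM1 and TPM2 through CALD1, MYLK and MYL9 to ACTG2, TAGLN, ACTA2, OXTR and CNN1. The NS control values of neighbours in this order did not overlap, except those of ACTG2 with TAGLN and of TAGLN with ACTA2. In BCL9 KD cells the mean of ACTA2 was above that of ACTG2, with overlapping values, and all TAGLN values were below both.

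The promoters of ACTG2 and MYLK have the CArG box in the stretch read here, and these stretches are shown because SRF acts through this element. Promoters were taken from RefSeq on GRCh38.p14 as 250 bases before to 50 bases after an annotated start. Of the 10 members, 8 had at least 1 such window, 15 windows in all. The table of windows used held none for TAGLN and MYL9, so their promoters were not read. The CArG box was searched as CC, then only A or T, then GG, a pattern of 10 bases that is the same on both strands. An exact match was in 2 of the 15 windows, and in 1.29% of all 35116 windows in the table. Boxes that differ from this pattern were not searched, so a window without a match, such as those of ACTA2, can still hold one. Each match is printed in capitals. A match describes the sequence and is not evidence of binding. The ACTG2 window lies at chr2:73892758-73893057 on the plus strand and holds 2 boxes, which begin 110 and 73 bases before the start.

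ACTG2: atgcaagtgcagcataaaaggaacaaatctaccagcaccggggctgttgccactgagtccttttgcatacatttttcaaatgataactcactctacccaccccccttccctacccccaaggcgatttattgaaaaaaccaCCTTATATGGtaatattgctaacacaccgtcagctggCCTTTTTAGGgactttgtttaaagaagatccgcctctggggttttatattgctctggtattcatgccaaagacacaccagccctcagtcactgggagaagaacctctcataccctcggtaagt

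The MYLK window lies at chr3:123620499-123620798 on the minus strand and holds 1 box, 94 bases before the start. This start is near the 3′ end of MYLK, which spans 123610049 to 123884331 in the deposited table.

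MYLK: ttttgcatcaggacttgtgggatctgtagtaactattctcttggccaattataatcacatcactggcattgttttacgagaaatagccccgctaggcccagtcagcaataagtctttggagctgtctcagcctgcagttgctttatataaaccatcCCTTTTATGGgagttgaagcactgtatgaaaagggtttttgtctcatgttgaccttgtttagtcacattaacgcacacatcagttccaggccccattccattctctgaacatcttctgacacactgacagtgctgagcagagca

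SRF, shown beside them because it is the factor of this element, had 2 windows in the table. The window at chr6:43171019-43171318 on the plus strand held 2 boxes, which begin 30 and 10 bases before the start.

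SRF: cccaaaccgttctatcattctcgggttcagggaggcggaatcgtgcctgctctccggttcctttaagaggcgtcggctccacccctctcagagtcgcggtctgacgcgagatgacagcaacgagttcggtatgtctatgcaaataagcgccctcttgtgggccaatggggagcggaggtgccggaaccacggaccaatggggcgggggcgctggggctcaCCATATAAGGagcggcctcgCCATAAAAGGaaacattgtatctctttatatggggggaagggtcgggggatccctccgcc

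The comparison was a limma fit of log2(FPKM + 0.5) over the 13745 genes with a mean of at least 0.5 FPKM in the 6 samples, with p-values adjusted over all of them. Fold changes are on this scale, which makes those of low genes smaller than the ratio of their FPKM. Single genes were also compared by a two-sided exact permutation test, in which p = 0.1 is the smallest value that 3 samples against 3 can give. Of the 13745 genes, 5.87% passed at an adjusted p under 0.05 and 2.91% passed as lower in BCL9 KD cells. The members gave 5 called of 8 tested, all of them lower. Among these 8, 3 (ACTA2, ACTG2 and TAGLN) reached 0.5 FPKM through the NS control samples alone, so their entry into the test depended on the group in which they were higher. Of the other 5 members, with a mean of at least 0.5 FPKM in each group, 3 were called lower, against 2.90% of the 13117 genes that met the same condition. The median log2 fold change was −0.49 for these 5 members and 0.04 for those 13117 genes.

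**Figure D1:**
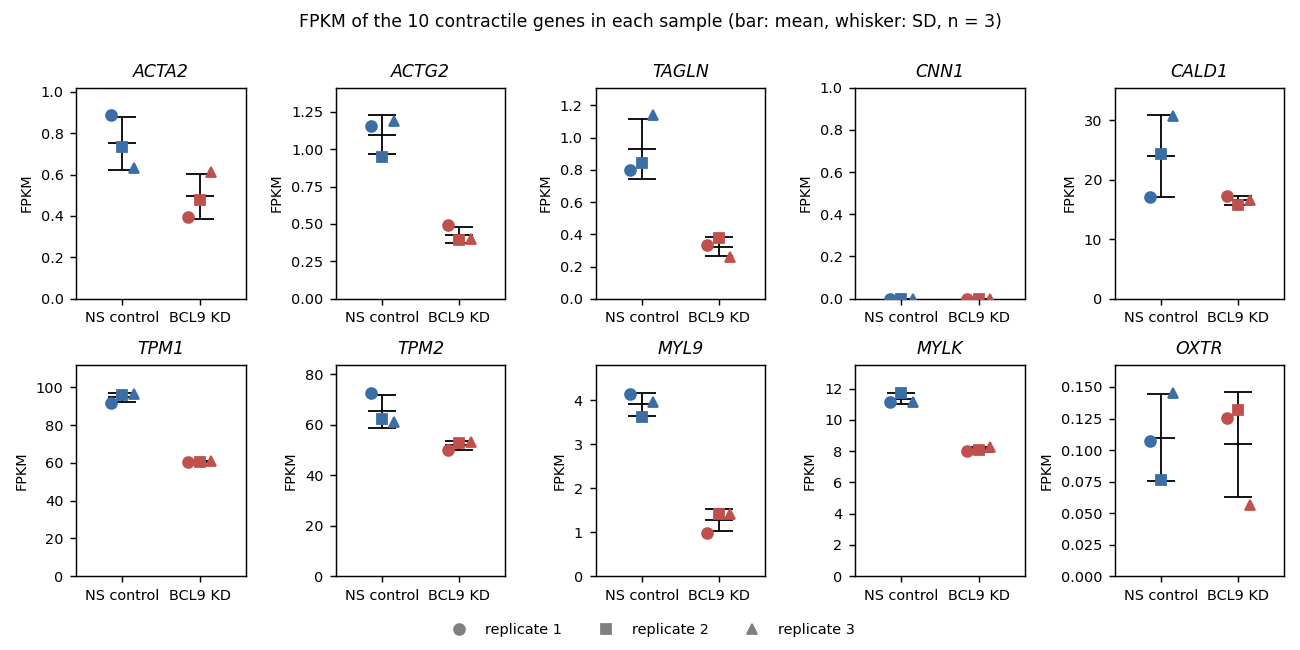
FPKM of each of the 10 genes (vertical axes, each from 0) in the 3 NS control (blue) and 3 BCL9 KD (red) samples. Points are samples, marked by replicate, the bar is the mean and the whiskers are the SD. The groups separate for ACTA2, ACTG2, TAGLN, TPM1, TPM2, MYL9 and MYLK, overlap for CALD1 and OXTR, and CNN1 is at 0 in all 6 samples.

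MYL9 (ENSG00000101335) encodes a regulatory light chain of myosin, the protein that the kinase phosphorylates to start contraction. It lies on chromosome 20 of GRCh38 from 36541484 to 36551447. The gene was measured at 4.15, 3.63 and 3.96 FPKM across NS control replicates 1 to 3, and at 0.983, 1.41 and 1.43 FPKM across BCL9 KD replicates 1 to 3. The lowest NS control value was above the highest BCL9 KD value, and the mean fell to 32.5% of the NS control mean. On the log2 scale it differed by −1.32, standard error 0.132 (limma adjusted p = 0.00942), and the values rest on 170 to 266 reads per NS control sample and 49 to 107 reads per BCL9 KD sample.

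MYL9 made up a small part of the light chains of its family. Of the summed FPKM of MYL9, MYL12A and MYL12B, the share of MYL9 was 3.41% ± 0.313 (SD, n = 3) in NS control and 0.763% ± 0.0769 (SD, n = 3) in BCL9 KD cells. MYL12B, a light chain used by most cells, was higher in BCL9 KD cells, with values of 81.4, 82.8 and 88.7 FPKM across NS control replicates 1 to 3, and of 119, 141 and 139 FPKM across BCL9 KD replicates 1 to 3. As a log2 fold change this was 0.65, standard error 0.0862 (limma adjusted p = 0.0171). MYL12A and MYL12B are close copies, so the split of reads between them is uncertain. MYL9 and MYL12B thus moved in opposite directions, and the summed FPKM of the 3 genes went from 115 ± 7.18 to 166 ± 17.4 (SD, n = 3).

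MYLK (ENSG00000065534) encodes the myosin light chain kinase. Expression stood at 11.2, 11.7 and 11.1 FPKM across NS control replicates 1 to 3, and at 7.98, 8.10 and 8.26 FPKM across BCL9 KD replicates 1 to 3. The spread within each group was small beside the gap between them. The fitted log2 difference came to −0.46, standard error 0.0662 (limma adjusted p = 0.0199), with 2868 to 5617 reads per sample. Of its 50-base windows, 1.51% are also in the pseudogenes MYLKP1 and MYLKP2 or in MRPL48. The smooth muscle, non-muscle and short telokin forms made from this gene are counted together in the table. The MYLK window with the CArG box printed above belongs to a start near the 3′ end, and its own use cannot be read from gene totals.

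TPM1 (ENSG00000140416) encodes alpha tropomyosin, a coiled coil that runs along the actin filament. It lies on chromosome 15 from 63042632 to 63071915 and had the highest FPKM of the 10 genes. It had values of 91.9, 96.0 and 96.2 FPKM across NS control replicates 1 to 3, and of 60.4, 60.7 and 61.1 FPKM across BCL9 KD replicates 1 to 3. The BCL9 KD samples lay within 1 FPKM of each other and far below the lowest NS control sample. The change on the log2 scale was −0.64, standard error 0.0589 (limma adjusted p = 0.00762), on 11949 to 26071 reads per sample.

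TPM2 (ENSG00000198467), beta tropomyosin, on chromosome 9 from 35681992 to 35691020, pairs with TPM1 along the filament. The gene was measured at 72.8, 62.2 and 61.1 FPKM across NS control replicates 1 to 3, and at 49.9, 52.8 and 53.2 FPKM across BCL9 KD replicates 1 to 3. The groups did not overlap, but NS control replicate 1 was well above the other NS control samples. The fold change was −0.32 (log2) with a 95% interval from −0.53 to −0.12, and it did not pass (limma adjusted p = 0.0692). It passed with quantile normalization (limma adjusted p = 0.0325) and after a correction for GC content (limma adjusted p = 0.0263).

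The related tropomyosin genes TPM3 and TPM4 did not pass (limma adjusted p = 0.949 and 0.391). TPM3 had 63.2 ± 3.81 FPKM in NS control against 62.8 ± 3.54 FPKM in BCL9 KD cells, and TPM4 had 69.5 ± 1.14 against 65.7 ± 0.808 FPKM (SD, n = 3 each). Their log2 fold changes had 95% intervals from −0.19 to 0.17 and from −0.22 to 0.06. As a share of the summed FPKM of the 4 tropomyosin genes, TPM1 and TPM2 together were 54.7% ± 0.544 (SD, n = 3) in NS control and 46.7% ± 0.548 (SD, n = 3) in BCL9 KD cells. The share of TPM1 alone was between 30.7% and 33.6% in NS control and between 24.7% and 25.8% in BCL9 KD samples, while that of TPM2 was between 21.2% and 24.3% and between 21.3% and 21.9%. These shares were not tested. Gene totals cannot tell apart the forms made from a gene, so they do not show which forms of TPM1 or TPM2 were lower.

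ACTG2 (ENSG00000163017) encodes the gamma smooth muscle actin and lies on chromosome 2 from 73892314 to 73919865. Expression stood at 1.16, 0.947 and 1.19 FPKM across NS control replicates 1 to 3, and at 0.490, 0.389 and 0.402 FPKM across BCL9 KD replicates 1 to 3. Every NS control value was above every BCL9 KD value. On the log2 scale it differed by −0.78, standard error 0.151 (limma adjusted p = 0.0374), on 69 to 100 reads per NS control sample and 24 to 40 reads per BCL9 KD sample. With single replicates left out, ACTG2 passed in 1 of 6 fits, the one without NS control replicate 3 (limma adjusted p = 0.0488).

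ACTA2 (ENSG00000107796) encodes the alpha smooth muscle actin and lies on chromosome 10 from 88935074 to 88991390. It had values of 0.887, 0.735 and 0.629 FPKM across NS control replicates 1 to 3, and of 0.393, 0.478 and 0.612 FPKM across BCL9 KD replicates 1 to 3. The groups stood apart by a narrow margin, and NS control replicate 3 and BCL9 KD replicate 3 each rest on 29 reads. Its log2 fold change was −0.33 with a 95% interval from −0.74 to 0.08 (limma adjusted p = 0.259), so neither a fall like that of ACTG2 nor the absence of a change can be read from these samples.

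Both smooth muscle actins were a trace of the actin RNA. ACTA2 and ACTG2 together were 0.0499% ± 0.00429 (SD, n = 3) of the summed FPKM of ACTA2, ACTG2, ACTB and ACTG1 in NS control cells and 0.0287% ± 0.00242 (SD, n = 3) in BCL9 KD cells. The cytoplasmic actins ACTB and ACTG1, at 1749 ± 190 and 1967 ± 309 FPKM (SD, n = 3) in NS control cells, had log2 fold changes of −0.20 and −0.21 and did not pass (limma adjusted p = 0.273 and 0.316). Since actin coding sequences are alike, reads of abundant actins could be placed on rare ones. Of the 50-base windows of the longest annotated coding transcript, 0 of 1645 for ACTA2 and 0 of 2015 for ACTG2 matched a transcript of another of these 4 actin genes exactly, and matches with mismatches were not searched. With another annotated gene, ENSG00000286116, ACTA2 shared 352 of its 1645 windows (21.4%). ENSG00000286116 is not among the genes listed in the deposited table. ACTG2 shared 2 of its windows with POTE genes. How reads in the shared ACTA2 windows were treated was not tested, so the levels of ACTA2 are uncertain to that extent. ACTA2 also overlaps FAS, STAMBPL1 and ACTA2-AS1 on the other strand, and reads there cannot be told apart without strand.

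TAGLN (ENSG00000149591) encodes transgelin, an early marker of smooth muscle that cross-links actin, on chromosome 11 from 117199321 to 117204782. The gene was measured at 0.798, 0.845 and 1.14 FPKM across NS control replicates 1 to 3, and at 0.332, 0.379 and 0.261 FPKM across BCL9 KD replicates 1 to 3. The groups were well apart, and NS control replicate 3 was the highest sample. As a log2 fold change this was −0.79, standard error 0.174 (limma adjusted p = 0.0486), close to the threshold and on 16 to 71 reads per sample. The gene passed with quantile normalization (limma adjusted p = 0.0328) and did not pass after the correction for GC content (limma adjusted p = 0.0726). TAGLN passed in 0 of the 6 fits that left out a replicate, with log2 fold changes from −0.85 to −0.68 and limma adjusted p up to 0.195 in these fits. Its span overlaps PCSK7 on the other strand, which had a mean of 1.93 FPKM. Of the 3737 windows of 50 bases in its longest annotated coding transcript, 65.5% are also in transcripts of ENSG00000280143, a gene at 0 FPKM in all 6 samples, and how the counting treated reads in such windows was not tested. The related TAGLN2, found in most cells, had 113 ± 10.3 against 139 ± 10.3 FPKM and did not pass (SD, n = 3, log2 fold change 0.29, limma adjusted p = 0.103).

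CALD1 (ENSG00000122786) encodes caldesmon, which blocks myosin from actin until calcium rises, and lies on chromosome 7 from 134744252 to 134970728. Expression stood at 17.0, 24.3 and 30.7 FPKM across NS control replicates 1 to 3, and at 17.2, 15.8 and 16.6 FPKM across BCL9 KD replicates 1 to 3. NS control replicate 1 lay among the BCL9 KD samples, so the groups overlapped (two-sided exact permutation test, p = 0.2). The log2 fold change was −0.49 with a 95% interval from −0.95 to −0.03 (limma adjusted p = 0.163). Without NS control replicate 1 it was −0.71 (limma adjusted p = 0.0302), and without NS control replicate 3 it was −0.29 (limma adjusted p = 0.222). CALD1 had the lowest GC content of the 10 genes listed, 44.1%, and NS control replicate 1 was the sample whose deviations rose most with GC content (by 0.209 on the log2 scale per 10 percentage points). With the GC correction the log2 fold change was −0.50 (limma adjusted p = 0.108).

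CNN1 (ENSG00000130176), basic calponin on chromosome 19 from 11538717 to 11550323, had 0 reads in every sample. A count of 0 allows up to 3 reads, which for CNN1 is at most between 0.0386 and 0.0683 FPKM in these samples, so CNN1 was not detectable at this depth. Its relatives CNN2 and CNN3, which are not confined to smooth muscle, had log2 fold changes of −0.35 and −0.23 (limma adjusted p = 0.0637 and 0.103). OXTR (ENSG00000180914), the oxytocin receptor on chromosome 3 from 8750408 to 8769628, had values of 0.107, 0.0766 and 0.146 FPKM across NS control replicates 1 to 3, and of 0.125, 0.132 and 0.0566 FPKM across BCL9 KD replicates 1 to 3. These values rest on 4 to 16 reads per sample, the groups overlapped fully, and no difference was detectable at this depth.

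**Figure D2:**
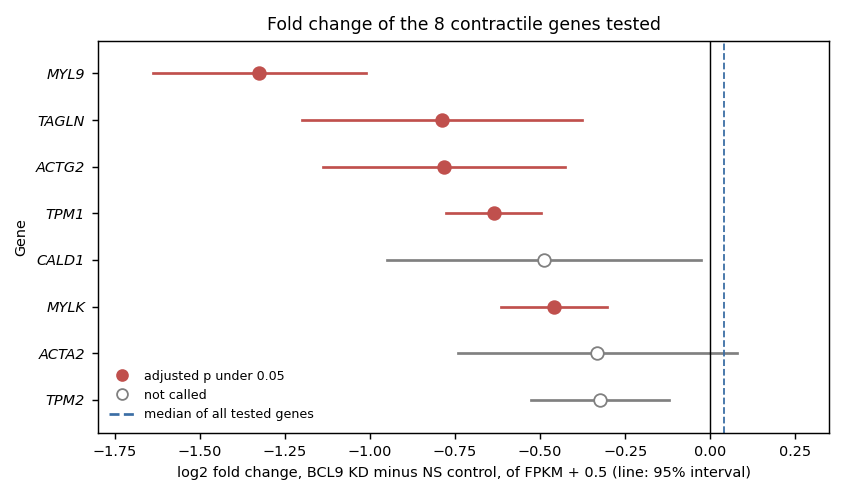
Log2 fold change of the 8 genes tested (horizontal axis, BCL9 KD minus NS control, on FPKM + 0.5), with 95% intervals from limma. Filled red points passed at an adjusted p under 0.05, open points did not, and the dashed line is the median of all tested genes, 0.04. All 8 points lie below 0, from −1.32 for MYL9 to −0.32 for TPM2, and the interval of ACTA2 crosses 0.

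For 7 of the 8 members tested, all but CALD1, every BCL9 KD value was below every NS control value, as for 16.4% of all tested genes. These 7 include the 3 that entered through NS control alone. Without NS control replicate 1, MYL9, TPM1 and MYLK remained of the 5 called members, ACTG2 and TAGLN did not pass and CALD1 passed, which made 4. Without NS control replicate 3 all but TAGLN remained, and without BCL9 KD replicate 1 MYL9, TPM1 and MYLK remained. No member passed without NS control replicate 2, BCL9 KD replicate 2 or BCL9 KD replicate 3. In these last 3 fits, between 5 and 13 of all genes passed, between 2330 and 2620 had an unadjusted p under 0.05, and the adjusted p of MYL9 was between 0.0600 and 0.0636.

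The same comparison was made in related genes, chosen for their function. Among 13 cytoplasmic genes of the same families, MYH9 was lower and MYL12B higher, and 11 did not pass, beside 5.87% called over all tested genes. MYH9 encodes the main non-muscle myosin heavy chain. It had values of 441, 413 and 357 FPKM across NS control replicates 1 to 3, and of 292, 253 and 244 FPKM across BCL9 KD replicates 1 to 3 (log2 fold change −0.62, standard error 0.109, limma adjusted p = 0.0322). The median log2 fold change of the 13 genes was −0.20, against 0.04 for all tested genes. ACTB and ACTG1 of this list, at −0.20 and −0.21, had −0.10 and −0.11 with the GC correction. Without NS control replicate 1 they had −0.11 and −0.08. The median of the list under these settings was not computed.

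Of 19 other genes of the smooth muscle contractile apparatus, 15 were tested, 2 were lower, 1 was higher and 12 did not pass, where 5.87% of all tested genes were called and 2.91% were called lower. The lower genes were VCL, which encodes vinculin, and TLN1, which encodes talin 1. Both proteins tie actin filaments to integrins and are not confined to smooth muscle. VCL had 49.1 ± 2.94 FPKM in NS control against 31.2 ± 1.78 FPKM in BCL9 KD (SD, n = 3, log2 fold change −0.65, limma adjusted p = 0.0122). TLN1 had 56.7 ± 8.12 and 37.4 ± 2.74 FPKM (SD, n = 3, log2 fold change −0.59, limma adjusted p = 0.0387). The higher gene was CSRP2, a smooth muscle LIM protein, with 2.81 ± 0.375 and 4.91 ± 0.386 FPKM (SD, n = 3, log2 fold change 0.71, limma adjusted p = 0.0243). MYH11, with 0.149 ± 0.0280 and 0.137 ± 0.0555 FPKM (SD, n = 3), was too low to be tested.

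SRF and its cofactor MKL1 were both lower in BCL9 KD cells. They are the 2 genes that passed among 11 tested in the list that holds them, where 9 did not pass and the median log2 fold change was 0.00, beside 5.87% called and 2.91% called lower over all tested genes. SRF, the transcription factor of the CArG box, had values of 35.2, 31.2 and 28.7 FPKM across NS control replicates 1 to 3, and of 22.0, 21.6 and 21.6 FPKM across BCL9 KD replicates 1 to 3. The groups were clearly apart (log2 fold change −0.53, standard error 0.0863, limma adjusted p = 0.0275). MKL1, now named MRTFA, encodes the SRF cofactor that actin holds outside the nucleus. Its mean was 10.8 ± 1.02 FPKM in NS control against 7.28 ± 0.351 FPKM in BCL9 KD (SD, n = 3, log2 fold change −0.54, limma adjusted p = 0.0287). Its relative MKL2 had 3.16 ± 0.461 and 3.14 ± 0.366 FPKM (SD, n = 3), with a 95% interval of the log2 fold change from −0.31 to 0.30. MYOCD had no reads, as given above. The 7 called related genes, MYH9, MYL12B, VCL, TLN1, CSRP2, SRF and MKL1, each passed in 3 of the 6 fits that left out a replicate, those without NS control replicate 1 or 3 or BCL9 KD replicate 1. Whether the level of SRF or MKL1 bears on the members was not tested.

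Of 14 genes of oxytocin receptor signaling, 12 were tested and 0 passed with limma, while 5 had an unadjusted p under 0.05. Over all 13745 genes, 5.87% passed and 3775 had an unadjusted p under 0.05. In this list 1 gene passed with limma at a mean of at least 1 FPKM, with quantile normalization, with the GC correction and without NS control replicate 3, and 1 passed with voom on recovered reads. The summed FPKM of this list was between 266 and 274 in NS control and between 249 and 264 in BCL9 KD samples. OXT, the hormone gene, had no reads.

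**Figure D3:**
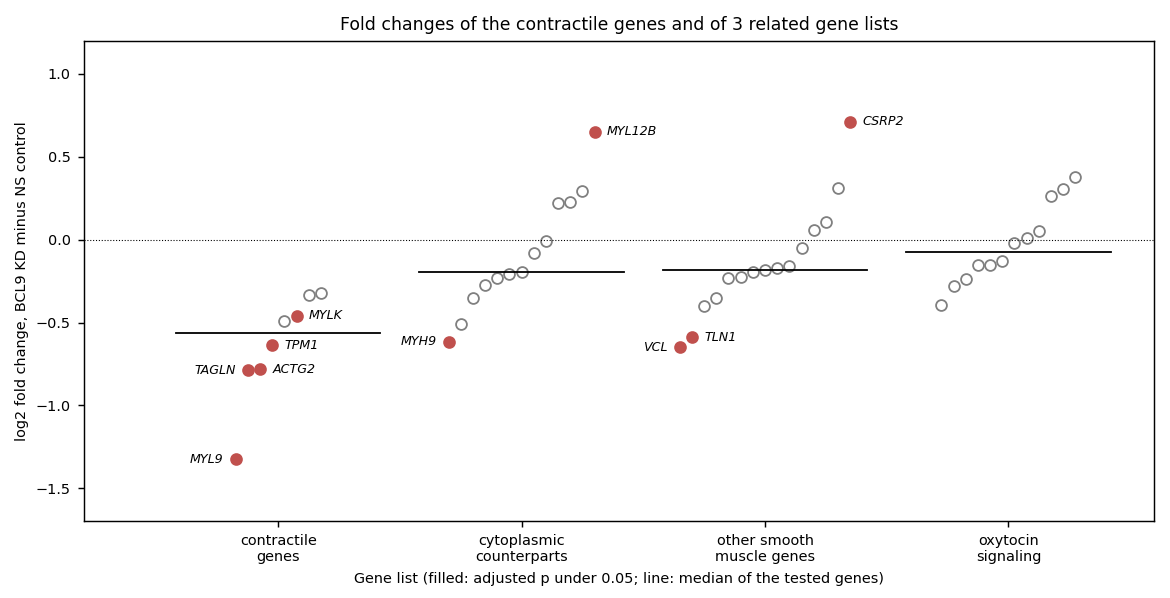
Log2 fold changes (vertical axis, BCL9 KD minus NS control, on FPKM + 0.5) of the tested genes of the contractile list and of 3 related lists (horizontal axis). Each point is a gene, filled red at an adjusted p under 0.05, and the black line is the median of the list. The median of the contractile genes is −0.56, with 3 of them tested through NS control alone, MYL12B and CSRP2 are the called genes above 0, and no gene of oxytocin signaling is filled.

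Of 8 basal and myoepithelial markers, 7 did not pass and 3 had an unadjusted p under 0.05 (TP63, MME and EGFR). The 7 included KRT14 at 35.5 ± 4.61 and 37.2 ± 0.869 FPKM and TP63 at 14.6 ± 2.25 and 17.6 ± 0.624 FPKM (SD, n = 3) in NS control and BCL9 KD cells. EGFR, a growth factor receptor, had values of 20.4, 23.3 and 20.4 FPKM across NS control replicates 1 to 3, and of 19.6, 16.7 and 17.0 FPKM across BCL9 KD replicates 1 to 3, with every BCL9 KD value below every NS control value (log2 fold change −0.26, limma adjusted p = 0.129). The log2 fold changes of ITGB4 and KRT17 were −0.11 and −0.02, and those of ITGA6 and KRT5 were both 0.05. MME, the surface peptidase CD10 of myoepithelial cells, was higher in BCL9 KD cells, with values of 0.178, 0.267 and 0.341 FPKM across NS control replicates 1 to 3, and of 0.900, 0.741 and 0.956 FPKM across BCL9 KD replicates 1 to 3 (log2 fold change 0.84, limma adjusted p = 0.0446). MME reached the tested range through the BCL9 KD samples alone. Of 8 luminal markers, 5 were tested and 0 passed with limma, with 1 at an unadjusted p under 0.05. For both marker lists the background is 5.87% called and 3775 of 13745 genes at an unadjusted p under 0.05.

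Over the 6 samples, the genes whose log2 values were most like those of MYL9 were CTGF, ESRP2, CLN6, TRIM35 and ANKRD27, with Pearson r between 0.992 and 0.994. The 6 samples fall in the same 2 groups for every gene, and 158 genes had r over 0.95. CTGF, a matrix-associated growth factor gene, had 39.9 FPKM on average in NS control and 25.1 FPKM in BCL9 KD cells (log2 fold change −0.66, limma adjusted p = 0.0136). Among the members, r with MYL9 ran from 0.65 for CALD1 to 0.98 for TPM1.

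**Figure D4:**
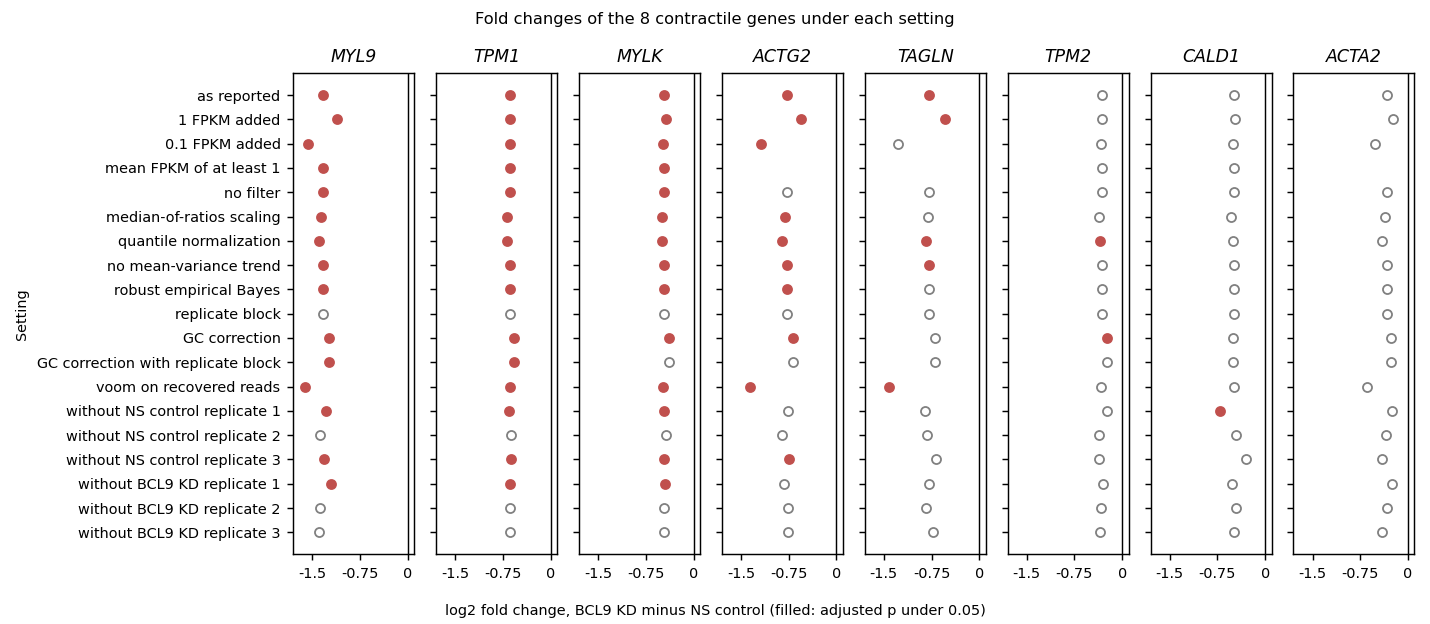
Log2 fold change of the 8 genes tested (horizontal axes) under the setting reported and 18 alternatives (vertical axis). Filled red points passed at an adjusted p under 0.05, and no point is drawn where a gene was not tested. All points lie below 0, and MYL9, TPM1 and MYLK are filled under most settings while ACTA2 is filled under none.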

How the data were processed

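RNA sequencing was analysed in 3 NS control and 3 BCL9 KD samples of DCIS.COM. STAR was the authors' aligner and HTSeq 0.6.1 their counter, and they deposited FPKM for 58676 genes. The same table holds, in other units, the gene length the authors used. Gene positions are those of the deposited table, and hg38 is named in the submitters' processing notes. The authors tested counts with DESeq2, while the deposited values are FPKM, so limma was used here. Reads per gene were recovered from FPKM and gene length, and 100% of values above 0 came out whole within 0.1 read. With no molecular identifiers, read numbers and floors cover counting error only.

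limma 3.58.1 in R 4.3.3 was fitted with an empirical Bayes trend to log2(FPKM + 0.5) for genes with a mean of at least 0.5 FPKM, BCL9 KD minus NS control, with Benjamini-Hochberg adjustment over all genes tested and a threshold of 0.05. The fit was tested on simulated data. GC content came from GRCh37 transcripts and was known for 98.8% of genes tested, and promoter windows came from RefSeq on GRCh38.p14. Python 3.11.15, scipy 1.17.1 and matplotlib 3.10.9 were used for the rest.

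The members, the related gene lists and the tests were chosen with earlier results of these data known. All 10 members are named, and of the related lists the genes that passed, with SRF, MYOCD, MYH11, ACTB and ACTG1 whatever their values. Other genes of these lists are given as relatives of a member, a choice made with their values known. The genes most like a member are the 5 with the highest Pearson r to the member with the largest change. Flasks are the labelled biological replicates, and no sample was left out. Some genes of the list that holds SRF are not reported here by name. The alternatives were other added values and filters, scalings, variance models, a replicate block, a GC correction, voom on recovered reads and leaving out each replicate.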

Additional observations from a re-analysis of the deposited data

How the results depend on the processing

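Of the 8 members tested, none changed sign under any of the 18 alternatives in which it was tested (17 for ACTA2, ACTG2 and TAGLN, which a mean of at least 1 FPKM leaves out). MYL9 and TPM1 passed in 14 of 18, MYLK in 13 of 18, ACTG2 in 9 of 17, TAGLN in 4 of 17, TPM2 in 2 of 18, CALD1 in 1 of 18 and ACTA2 in 0 of 17. The count of 5 members called became 3 with a mean of at least 1 FPKM, where fewer members were tested, 3 with no filter, 0 with the replicate block and 2 with the GC correction and replicate block together. The count of 807 genes became 142 with no filter, 536 with median-of-ratios scaling, 332 without the mean-variance trend, 1760 with the GC correction, 394 with the GC correction and replicate block (268 higher and 126 lower, against 407 and 400) and 1403 with voom. The 7 called genes of the related lists became 1 with no filter, 4 without the trend, 13 with the GC correction and 11 with voom. With each replicate left out, the counts ran from 0 to 4 members, from 5 to 1712 genes and from 0 to 10 genes of the related lists. The causes were not tested.

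With the replicate block, which uses the replicate number as a covariate, 0 genes of all, 0 members and 0 genes of the related lists passed with limma, and 3235 genes had an unadjusted p under 0.05. Deviations of same-numbered samples had correlations of −0.147, −0.0884 and −0.00287 across genes. Those of differently numbered samples ran from −0.0988 to 0.159. These values give no sign of pairing by number, but they cannot show whether flasks of the same number were handled together. At the depths of these samples ACTA2, ACTG2, TAGLN and OXTR rest on at most 100 reads per sample, which limits their precision.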
